A study of Mus musculus with 4 samples.

Results

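Oxidative phosphorylation subunits are the nuclear-encoded protein parts of the respiratory chain, complexes I to IV, and of the ATP synthase, complex V. The genes were taken by symbol, as all rows of the deposited tables that begin with the usual stems for these subunits (Nduf with a, b, c, s or v and a number, Sdha to Sdhd, Uqcr, Cox5 to Cox8 with a letter, and Atp5), pseudogenes left out. This gave 82 of 21878 rows, with 37 named for complex I, 4 for complex II, 8 for complex III, 16 for complex IV and 17 for complex V. Of these, 77 passed the filter on low counts, and the other 5, Cox6a2, Cox7b2, Cox8b, Cox8c and Ndufa4l2, had at most 6 counts in any library. Symbols do not define the complexes exactly. Cox4i1, Cyc1 and Ndufab1 encode subunits whose symbols fall outside the stems, and are described with the related genes. Ndufa4 is now regarded as a subunit of complex IV, Cox7a2l links complexes into supercomplexes, and Atp5s and Atp5sl do not encode subunits of the ATP synthase.

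The 4 libraries were made from liver progenitor-like cells, which are adult mouse liver cells that have taken on a dividing, less mature state in culture. Both groups came from C57BL/6 mice, given as 6 to 8 weeks old in one label and 8 weeks old in the protocol, and both were grown in media for transition and expansion. HepLPC (n = 2 libraries) were grown from hepatocytes and NPC_LPC (n = 2 libraries) from non-parenchymal cells, the liver cells other than hepatocytes. The series set out to compare expression between these origins. The protocol names tdTomato mice given AAV8-TBG-Cre, a virus whose promoter drives Cre in hepatocytes, and AlbCreERT/R26GFP mice, in which Cre is driven by the albumin promoter, as the sources of hepatocytes and non-parenchymal cells in that order. If they were used in that order, mouse line and virus follow the group, and origin cannot be told apart from them. Because the cell type given for HepLPC names both origins, groups were taken from the sample titles. The labels do not give the source of each replicate (mouse, culture or neither), so p-values measure the spread between these libraries, which may be technical.

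In oxidative phosphorylation, electrons from NADH enter the inner mitochondrial membrane at complex I and those from succinate at complex II, pass through ubiquinone to complex III and through cytochrome c to complex IV, and reduce oxygen to water. Complexes I, III and IV pump protons as electrons pass, and the ATP synthase lets the protons back to make ATP. Apart from complex II, each complex joins subunits made from mitochondrial genes to the nuclear-encoded ones described here. Hepatocytes are rich in mitochondria, while dividing cultured cells commonly lean on glycolysis.

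Nuclear genes for respiratory subunits lie on many chromosomes, here on all but chromosome 14 of the autosomes and on X, and are known to share binding sites for NRF1 and for GABPA, a factor of the ETS family, near their starts. Promoter windows of 250 bases before the start were taken from RefSeq (GRCm38.p6) for the 67 of the 77 tested members in that table, 73 windows in all. The NRF1 motif, GCGCA followed by any base and then GCGC, searched on both strands, was in 14 windows, or 19.2%, against 7.94% of the 12643 windows of all tested genes. The ETS motif CCGGAAG was in 16.4% against 13.3%, and the YY1 motif AANATGGCG in 5.48% against 2.02%. For each complex, 1 abundant member with an NRF1 match is shown, 5′ to 3′ on the gene's strand, so that the motif can be seen in place. None of the windows held for complex III had a match. Capitals mark NRF1 and ETS matches, and the windows are chr13:73328483-73328732, minus strand for Ndufs6, chr13:74350241-74350490, minus strand for Sdha, chr5:115348959-115349208, minus strand for Cox6a1 and chr15:102671048-102671297, minus strand for Atp5g2.
Ndufs6: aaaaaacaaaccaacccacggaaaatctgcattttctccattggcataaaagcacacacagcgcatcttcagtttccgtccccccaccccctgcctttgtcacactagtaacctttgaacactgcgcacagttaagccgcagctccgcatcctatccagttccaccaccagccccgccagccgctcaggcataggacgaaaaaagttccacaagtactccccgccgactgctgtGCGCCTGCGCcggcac
Sdha: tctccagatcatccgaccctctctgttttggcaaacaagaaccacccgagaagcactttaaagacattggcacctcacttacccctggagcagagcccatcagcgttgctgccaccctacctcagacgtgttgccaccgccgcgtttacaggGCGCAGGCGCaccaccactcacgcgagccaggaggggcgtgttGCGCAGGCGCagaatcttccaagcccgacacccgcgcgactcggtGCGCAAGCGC
Cox6a1: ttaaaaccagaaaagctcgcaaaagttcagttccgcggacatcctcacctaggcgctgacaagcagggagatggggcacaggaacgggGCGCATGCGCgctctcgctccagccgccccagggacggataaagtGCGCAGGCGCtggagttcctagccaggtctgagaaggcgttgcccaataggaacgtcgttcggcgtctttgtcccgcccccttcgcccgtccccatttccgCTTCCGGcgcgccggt
Atp5g2: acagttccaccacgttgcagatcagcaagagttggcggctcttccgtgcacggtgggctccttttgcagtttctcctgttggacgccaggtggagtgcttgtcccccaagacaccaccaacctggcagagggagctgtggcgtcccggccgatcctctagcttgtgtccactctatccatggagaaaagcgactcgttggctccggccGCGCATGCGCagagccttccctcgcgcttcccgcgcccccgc
Ndufs6 and Atp5g2 each hold 1 NRF1 match and no ETS match, Cox6a1 holds 2 and 1, and Sdha holds 3 and 0. The matches describe letters and show no binding. Members with an NRF1 match had a median log2 fold change of 0.47 (13 genes) and those without one of 0.42 (54 genes), close to each other, and the difference was not tested. The gene Nrf1 itself had a log2 fold change of 0.45 ± 0.31 and Gabpa one of 0.41 ± 0.32, with edgeR adjusted p of 0.442 and 0.485.

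Library totals ran from 17575998 to 20625957 counts, and a count of 3, used as a floor, equals 0.149 to 0.169 CPM (counts scaled by library size and TMM factors). Floors cover counting error only, since reads copied by PCR are not independent molecules. Defining markers went partly against the source tissue: Alb reached 2.28 CPM in 1 HepLPC library and had at most 3 counts elsewhere, and Cyp3a11 had no count. The summed CPM of 10 hepatocyte markers was 4434 and 5230.0 in HepLPC and 3177 and 1724 in NPC_LPC, most of it Apob. For 8 bile duct markers it was 4774 and 2214 in HepLPC and 9504 and 4783 in NPC_LPC, most of it Spp1 except in HepLPC replicate 2. Of the 6 tested bile duct markers 3 lay above 0 and 3 below, and Krt19 went against the sum, at 1434 (replicate 1) and 885 CPM (replicate 2) in HepLPC, against 111 and 275 CPM in NPC_LPC, as did Krt7, at 103 (replicate 1) and 165 CPM (replicate 2) in HepLPC, against 1.43 and 17.2 CPM in NPC_LPC. The hepatocyte sum, like that of the members described here, was higher in both HepLPC libraries. It differed between the NPC_LPC replicates, where the members' sums were 5619 and 5617 CPM. Its part in the members' differences was not tested. Over the libraries, the sum of 7 endothelial markers was 2.30 to 7.44 CPM and that of 10 stellate cell markers 5.38 to 18.1 CPM. That of 7 leukocyte markers was 16.9 to 81.7 CPM, most of it Cd68 in each library. Lrat, Lum, Clec4f and Cd3e were at 0. In such bulk RNA, fewer cells of a type and less RNA per cell cannot be told apart.

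Fold changes are given on the log2 scale with ± 1 SE from edgeR. As a group, oxidative phosphorylation genes were more abundant in HepLPC by a median of 1.34-fold, with no single gene past the edgeR test. Genes that are not members and have under 1000 exonic bases leaned the same way, at a median log2 fold change of 0.29. With the trend of fold change on transcript length removed, the members' median was 0.13 on the log2 scale with 47 of 77 above 0, and with chromosome medians removed too it was 0.08 with 46 above 0. Their summed level was 7008 and 8392 CPM in HepLPC replicates 1 and 2 and 5619 and 5617 CPM in those of NPC_LPC, or 0.696%, 0.848%, 0.572% and 0.550% of all counts. Both HepLPC libraries lay above both NPC_LPC libraries, and the HepLPC libraries were the further apart. The ratio of the group means was 1.37. Of the 77 genes tested, 67 had a log2 fold change (HepLPC over NPC_LPC) above 0 and 10 below, where 49.8% of all 12332 tested genes were above 0. Their median log2 fold change was 0.42, a 1.34-fold difference, against -0.0030 over all genes tested. The middle 50% of members lay between 0.27 and 0.65, a narrower band than the -0.51 to 0.47 of all genes.

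EdgeR's quasi-likelihood test with Benjamini-Hochberg adjustment over all genes called 0 of the 77 members, where it called 0.43% of all genes, and the smallest adjusted p of a member was 0.106 (Ndufb9). At an unadjusted p under 0.05, 13 members were higher in HepLPC and 0 lower, against 10.4% higher and 11.5% lower of all genes (21.9% in all). DESeq2 called 5 members higher (Ndufa12, Ndufb9, Cox6c, Atp5g2 and Atp5f1) and 0 lower, against 5.81% and 6.5% of all genes, and limma-voom called 0, against 0.0405%. The share of members called higher by DESeq2 was near that of all genes. In 53 of the 77 members both HepLPC libraries exceeded both NPC_LPC libraries, and in 6 both were lower, where 27.9% and 28.6% of all genes did so (56.4% in all).

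The difference was not shared evenly between the HepLPC libraries. Over the 77 members, HepLPC replicate 1 exceeded NPC_LPC replicates 1 and 2 by a median of 0.37 and 0.29 on the log2 CPM scale, and HepLPC replicate 2 exceeded them by 0.54 and 0.58. Between the HepLPC libraries the median difference, replicate 1 minus replicate 2, was -0.28, with replicate 2 the higher in 61 of 77 members. Between the NPC_LPC libraries it was -0.02, with replicate 2 the higher in 42. The spread within HepLPC was thus close in size to the smallest of the 4 differences between the groups. Without HepLPC replicate 1 the fitted median was 0.60, and without HepLPC replicate 2 it was 0.33.

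**Figure D1:**
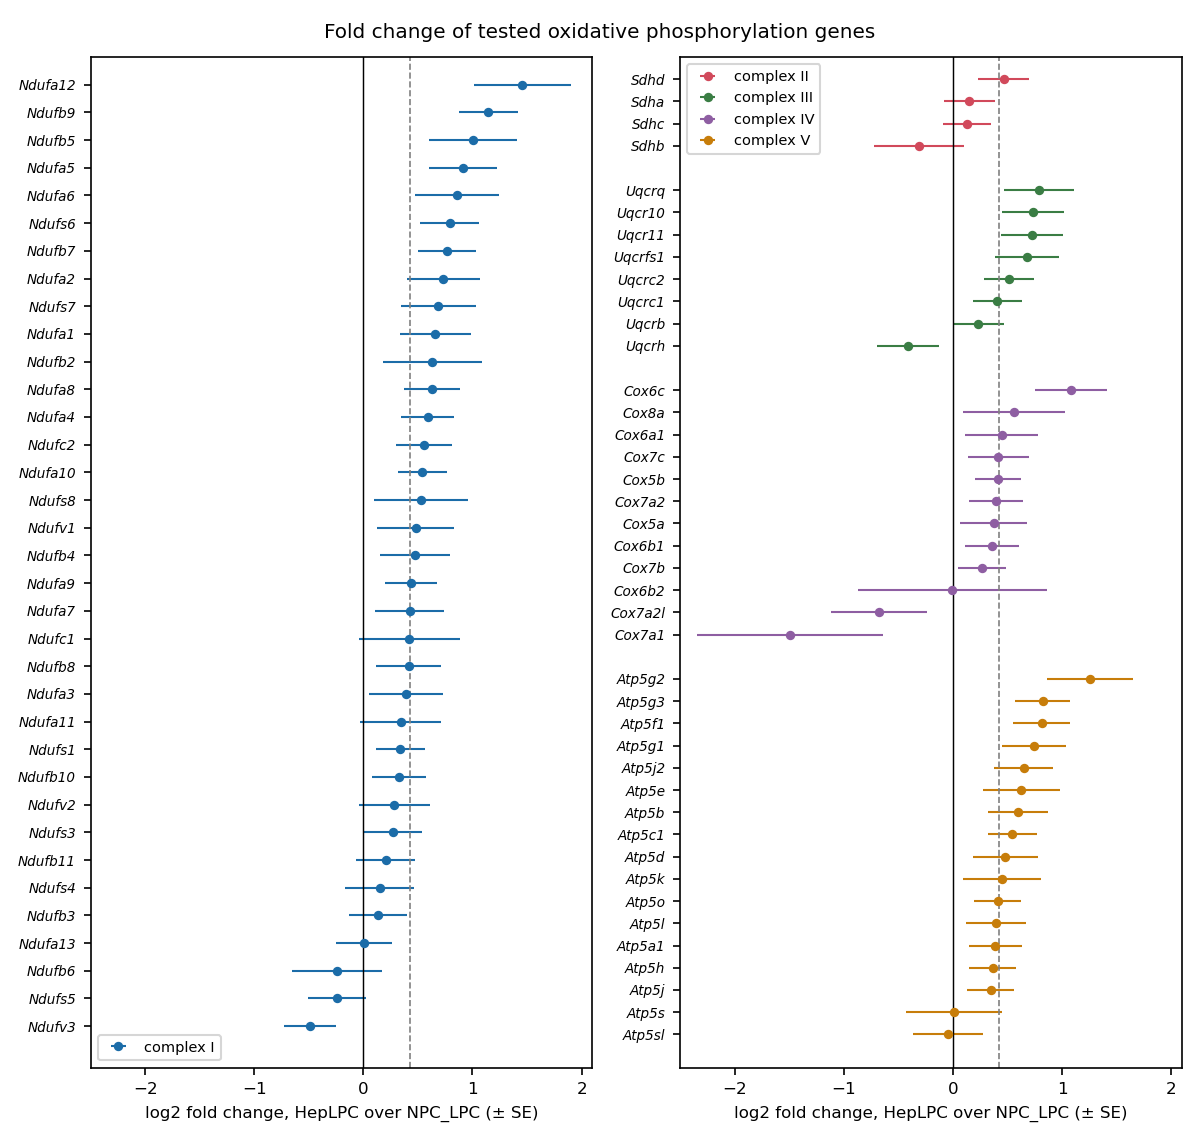
Log2 fold change, HepLPC over NPC_LPC, of tested members (1 not shown) on the horizontal axis, grouped by complex and ordered by value; points are edgeR estimates, bars are ± 1 SE, and the dashed line is the median over members, 0.42. Most points lie between 0 and 1, and Ndufv3, Uqcrh, Cox7a2l and Cox7a1 are the lowest.

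**Figure D2:**
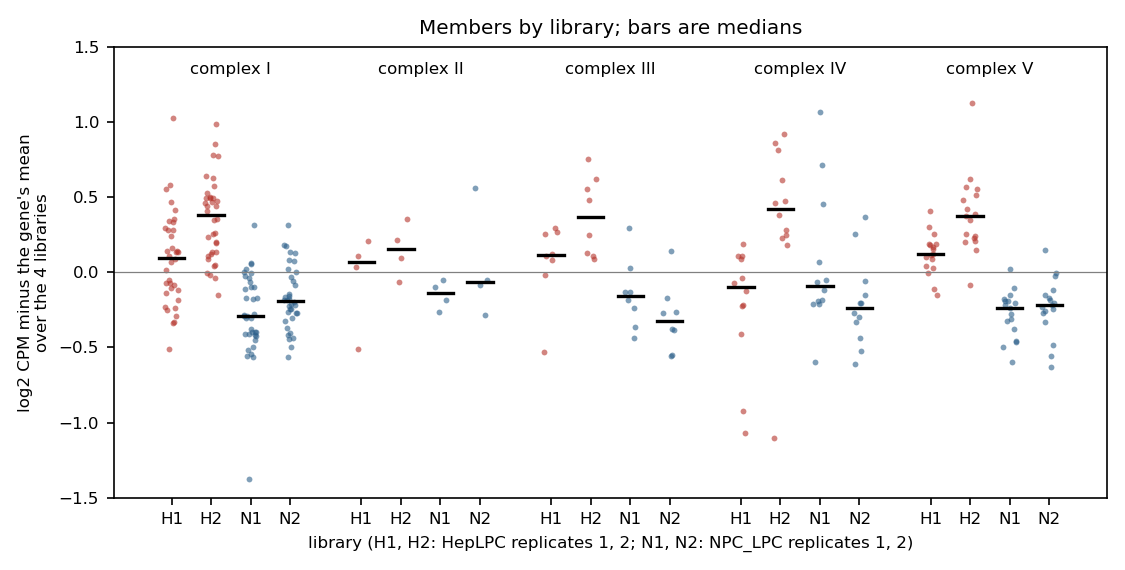
Log2 CPM of each tested member minus its mean over the 4 libraries, by complex and library; points are genes and bars are medians. HepLPC replicate 2 has the highest median in each complex, and the 4 medians of complex II span the smallest range.

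Complex I takes electrons from NADH and is the largest of the complexes, with core subunits that carry the flavin and iron-sulfur clusters and many accessory subunits around them. In complex I, 32 of the 36 tested genes lay above 0, with a median of 0.46 on the log2 scale, and edgeR called 0 (6 higher at an unadjusted p under 0.05, 2 called by DESeq2). Of all genes, 10.4% were higher at that unadjusted p and 5.81% were called higher by DESeq2. The 7 nuclear core subunits had a median of 0.34 and the 29 tested accessory subunits one of 0.47, a difference that was not tested. Ndufv1, which binds NADH and the flavin, was at 52.8 (replicate 1) and 92.8 CPM (replicate 2) in HepLPC, against 60.01 and 44.4 CPM in NPC_LPC. Its groups overlapped, with HepLPC replicate 2 well above the other 3 libraries. Ndufv2, Ndufs1, Ndufs3, Ndufs7 and Ndufs8, also of the core, had log2 fold changes of 0.28, 0.34, 0.27, 0.69 and 0.53.

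Both ends of the range in complex I were accessory subunits. Ndufa12, an accessory subunit added late in assembly (chromosome 10, 94199035 to 94221440), was at 140.1 (replicate 1) and 99.5 CPM (replicate 2) in HepLPC, against 26.4 and 60.7 CPM in NPC_LPC. Both HepLPC libraries were above both NPC_LPC libraries, and NPC_LPC replicate 1 was the lowest (1.46 ± 0.44 on the log2 scale, adjusted p = 0.154 in edgeR; DESeq2 adjusted p = 0.0192). About 17.7% of the 50-base stretches of its transcripts also occur in transcripts of another gene, so some of its reads may be assigned elsewhere. Ndufb9, a subunit of the far membrane arm (chromosome 15, 58933801 to 58939516), was at 55.4 (replicate 1) and 75.2 CPM (replicate 2) in HepLPC, against 29.5 and 29.5 CPM in NPC_LPC. The groups were apart, and the NPC_LPC libraries had the same value to 3 digits (1.15 ± 0.27 on the log2 scale, adjusted p = 0.106 in edgeR; DESeq2 adjusted p = 0.00848). Ndufb5, also of the membrane arm, was at 32.2 and 67.4 CPM in HepLPC against 24.1 and 25.6 CPM in NPC_LPC, with most of the difference in HepLPC replicate 2. Ndufs6, a zinc-binding subunit, and Ndufa5, next to the core of the matrix arm, had log2 fold changes of 0.79 and 0.91, each with unadjusted p under 0.05 in edgeR and adjusted p of 0.177 and 0.181.

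At the other end, Ndufv3, a small accessory subunit near the NADH site (chromosome 17, 31520115 to 31531326), was at 42.7 (replicate 1) and 48.6 CPM (replicate 2) in HepLPC, against 67.2 and 61.1 CPM in NPC_LPC. Both HepLPC libraries were below both NPC_LPC libraries (-0.49 ± 0.24 on the log2 scale, adjusted p = 0.294 in edgeR). Ndufs5 and Ndufb6 were below 0 as well, at -0.24 and -0.24, and Ndufa13, also known as GRIM-19, was at 0.01 (SE 0.26). Ndufa4 and Ndufa3 had the highest mean FPKM among the genes named for complex I. Ndufa4 was at 174 (replicate 1) and 227 FPKM (replicate 2) in HepLPC, against 120.2 and 141 FPKM in NPC_LPC, higher in both HepLPC libraries (0.59 ± 0.24 on the log2 scale, adjusted p = 0.238 in edgeR). Ndufa3, of the membrane arm, was at 152 (replicate 1) and 177 FPKM (replicate 2) in HepLPC, against 87.7 and 149 FPKM in NPC_LPC, with NPC_LPC replicate 1 apart from the other 3. Ndufa4l2, a relative of Ndufa4 known to be induced by hypoxia, had 3 counts in HepLPC replicate 2 and none in the other libraries. The remaining genes of complex I reported here lay between 0.14 (Ndufb3) and 0.86 (Ndufa6) on the log2 scale.

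Complex II, succinate dehydrogenase, is also an enzyme of the tricarboxylic acid cycle and has no mitochondrially encoded part. Before any adjustment it showed the smallest difference of the 5 complexes, with a median of 0.14 on the log2 scale for its 4 genes. EdgeR, DESeq2 and limma-voom called 0, and 0 had an unadjusted edgeR p under 0.05. With length trend and chromosome medians removed its median was 0.13. Those of complexes I and IV were then smaller in size, at 0.09 and -0.04. Sdha, the catalytic flavoprotein, was at 270.2 (replicate 1) and 224 CPM (replicate 2) in HepLPC, against 219 and 226 CPM in NPC_LPC, so the groups overlapped. Sdhd, a membrane anchor, was at 71.8 (replicate 1) and 85.3 CPM (replicate 2) in HepLPC, against 58.8 and 54.8 CPM in NPC_LPC, higher in both HepLPC libraries (0.47 ± 0.23 on the log2 scale, adjusted p = 0.303 in edgeR). Sdhb, the iron-sulfur subunit, was at 21.5 (replicate 1) and 35.7 CPM (replicate 2) in HepLPC, against 25.6 and 45.4 CPM in NPC_LPC. Replicates of each group differed by more than the group means did (-0.31 ± 0.41 on the log2 scale, adjusted p = 0.69 in edgeR). The other anchor, Sdhc, had a log2 fold change of 0.13 (SE 0.22).

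Complex III passes electrons from ubiquinol to cytochrome c. In complex III, 7 of the 8 tested genes lay above 0, with a median of 0.60 on the log2 scale, and edgeR called 0. This was the highest median of the 5 complexes. At an unadjusted edgeR p under 0.05 were 2 genes, Uqcr10 and Uqcr11, both higher, against 10.4% of all genes. DESeq2 and limma-voom called 0. All 8 genes had groups that did not overlap, 7 with HepLPC higher, where the shares of all genes were 56.4% and 27.9%. Uqcrq, a small subunit of the membrane part, was at 59.3 (replicate 1) and 101 CPM (replicate 2) in HepLPC, against 46.7 and 46.1 CPM in NPC_LPC, with HepLPC replicate 2 far above the rest (0.79 ± 0.32 on the log2 scale, adjusted p = 0.228 in edgeR). Uqcr11, another small subunit, was at 278 (replicate 1) and 378 FPKM (replicate 2) in HepLPC, against 192 and 205 FPKM in NPC_LPC. Uqcrb, an accessory subunit, was at 296 (replicate 1) and 290.3 FPKM (replicate 2) in HepLPC, against 277 and 232 FPKM in NPC_LPC, a smaller separation (0.23 ± 0.23 on the log2 scale, adjusted p = 0.586 in edgeR). Uqcrfs1, the Rieske iron-sulfur protein, was at a mean of 57.8 ± 12.2 CPM (SD, n = 2) for HepLPC against 36.04 ± 7.36 CPM (SD, n = 2) for NPC_LPC, with a log2 fold change of 0.68. The core proteins Uqcrc1 and Uqcrc2 had log2 fold changes of 0.41 and 0.51. Uqcrh, the acidic hinge protein (chromosome 4, 116066965 to 116075070), went the other way, at 73.3 (replicate 1) and 112 CPM (replicate 2) in HepLPC, against 129.9 and 117 CPM in NPC_LPC (-0.41 ± 0.28 on the log2 scale, adjusted p = 0.442 in edgeR).

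Complex IV, cytochrome c oxidase, reduces oxygen, and several of its nuclear subunits exist as isoforms used in different tissues. In complex IV, 9 of the 12 tested genes lay above 0, with a median of 0.38 on the log2 scale, and edgeR called 0, with 1 (Cox6c) called by DESeq2 and 1 at an unadjusted edgeR p under 0.05. The shares of all genes called higher by DESeq2 and higher at that p were 5.81% and 10.4%. Cox6c (chromosome 15, 35931976 to 35938246) was at 69.4 (replicate 1) and 122 CPM (replicate 2) in HepLPC, against 42.5 and 47.5 CPM in NPC_LPC. Both HepLPC libraries were higher, replicate 2 more so (1.09 ± 0.33 on the log2 scale, adjusted p = 0.154 in edgeR; DESeq2 adjusted p = 0.04). Cox8a, which had the highest mean FPKM of all members, was at 377 (replicate 1) and 927 FPKM (replicate 2) in HepLPC, against 514 and 322 FPKM in NPC_LPC. Its groups overlapped, since HepLPC replicate 1 was below NPC_LPC replicate 1 (0.56 ± 0.46 on the log2 scale, adjusted p = 0.513 in edgeR), and without HepLPC replicate 2 its log2 fold change was -0.21. Cox7a2l, the supercomplex factor, was at 47.1 (replicate 1) and 118 CPM (replicate 2) in HepLPC, against 136 and 128 CPM in NPC_LPC. HepLPC replicate 1 stood apart from the other 3 libraries (-0.68 ± 0.44 on the log2 scale, adjusted p = 0.414 in edgeR), and on the FPKM scale its direction was reversed (0.17 on the log2(FPKM + 1) scale). Cox7b, another small subunit, was at 70.9 (replicate 1) and 74.5 FPKM (replicate 2) in HepLPC, against 56.4 and 66.7 FPKM in NPC_LPC. Cox5a, Cox5b, Cox7b and Cox7c had log2 fold changes of 0.37, 0.41, 0.27 and 0.41.

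The isoforms read out in both kinds of culture were those of liver and other non-muscle tissue. Cox6a1 was at 205 (replicate 1) and 370.2 FPKM (replicate 2) in HepLPC, against 237 and 173 FPKM in NPC_LPC, while its heart and muscle counterpart Cox6a2 had 6 and 2 counts in HepLPC and 0 in NPC_LPC. HepLPC replicate 2 was the highest of the 4 libraries for Cox6a1, and the other 3 overlapped between groups. Cox7a2, the form found in liver, was at 87.9 (replicate 1) and 93.6 FPKM (replicate 2) in HepLPC, against 67.4 and 64.7 FPKM in NPC_LPC. Its muscle counterpart Cox7a1 was at 2.71 (replicate 1) and 1.54 FPKM (replicate 2) in HepLPC, against 7.76 and 3.40 FPKM in NPC_LPC, from 11, 5, 30 and 18 counts. Cox7a1 thus made up 2.99% and 1.62% of the summed FPKM of this pair in HepLPC and 10.3% and 4.99% in NPC_LPC. Its log2 fold change, the lowest of the members, was -1.49 with an SE of 0.85, and it did not pass the test (edgeR adjusted p = 0.358). Cox6b1 was at 245 (replicate 1) and 341 FPKM (replicate 2) in HepLPC, against 221 and 227 FPKM in NPC_LPC, and the testis form Cox6b2 at 19, 67, 64 and 27 counts in the same order, or up to 1.41% of the pair's FPKM. Cox4i1 held at least 99.99% of the FPKM of its pair in each library, with Cox4i2, an isoform of lung and of low oxygen, at no more than 2 counts. Cox7b2, Cox8b and Cox8c had no count, which allows up to 0.169 CPM in a library.

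Complex V, the ATP synthase, has a catalytic head in the matrix and a proton-driven ring in the membrane. In complex V, 16 of the 17 tested genes lay above 0, with a median of 0.48 on the log2 scale, and edgeR called 0, with 4 at an unadjusted p under 0.05 and 2 called by DESeq2. Of all genes, 10.4% were higher at that p and 5.81% were called higher by DESeq2. In 15 of the 17 genes both HepLPC libraries exceeded both NPC_LPC libraries, where 27.9% of all genes did so. The other 2 genes were Atp5s and Atp5sl, which do not encode subunits (0.01 and -0.05 on the log2 scale). Atp5b and Atp5a1, the catalytic beta and the alpha subunit of the head, held 27.97% of the summed CPM of all members. Atp5b was at 1228 (replicate 1) and 1599 CPM (replicate 2) in HepLPC, against 921 and 947 CPM in NPC_LPC (0.60 ± 0.27 on the log2 scale, adjusted p = 0.272 in edgeR). Atp5a1 was at 779 (replicate 1) and 784 CPM (replicate 2) in HepLPC, against 563 and 630.1 CPM in NPC_LPC (0.39 ± 0.25 on the log2 scale, adjusted p = 0.4 in edgeR). In both genes each HepLPC library was above each NPC_LPC library, with the HepLPC libraries further apart for Atp5b, and neither gene passed the test. Atp5f1, subunit b of the stalk, was at 389 (replicate 1) and 393 CPM (replicate 2) in HepLPC, against 255 and 189.9 CPM in NPC_LPC (0.81 ± 0.26 on the log2 scale, adjusted p = 0.165 in edgeR; DESeq2 adjusted p = 0.0454). The rotor subunits Atp5c1, Atp5d and Atp5e had log2 fold changes of 0.55, 0.48 and 0.63. Those of the stator and membrane subunits Atp5h, Atp5j, Atp5o, Atp5j2, Atp5k and Atp5l lay between 0.35 (Atp5j) and 0.65 (Atp5j2).

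Subunit c, which forms the rotating ring of the ATP synthase, is encoded by Atp5g1, Atp5g2 and Atp5g3, whose products differ in the targeting peptide and not in the mature protein. All 3 were higher in HepLPC by fitted value and none passed the edgeR test. Atp5g2 (chromosome 15, 102662868 to 102671047) was at 66.8 (replicate 1) and 143 CPM (replicate 2) in HepLPC, against 43.4 and 44.5 CPM in NPC_LPC. HepLPC replicate 2 was far above the other 3 libraries (1.26 ± 0.39 on the log2 scale, adjusted p = 0.16 in edgeR; DESeq2 adjusted p = 0.0345). Atp5g3 was at 98.1 (replicate 1) and 132 CPM (replicate 2) in HepLPC, against 68.7 and 61.6 CPM in NPC_LPC (0.82 ± 0.25 on the log2 scale, adjusted p = 0.156 in edgeR), and Atp5g1 at 33.4 (replicate 1) and 44.2 CPM (replicate 2) in HepLPC, against 21.1 and 25.1 CPM in NPC_LPC (0.75 ± 0.29 on the log2 scale, adjusted p = 0.218 in edgeR). As shares of the FPKM of these 3 genes, Atp5g2 held 51.3% and 62.5% in HepLPC replicates 1 and 2. In those of NPC_LPC it held 44.8% and 48.4%. As shares of their counts it held 33.7%, 44.8%, 32.6% and 33.9% in the same order. Atp5g3 then held 49.5%, 41.4%, 51.6% and 47.0%, more than Atp5g2 except in HepLPC replicate 2. Exonic lengths of Atp5g2 and Atp5g3 are 731 and 724 bases, where their FPKM imply 364 and 660. Their order thus depends on the unit. Of the FPKM, Atp5g1 held 7.93% to 12.9% in the 4 libraries. Of the 50-base stretches of Atp5g2 transcripts, 38.3% also occur in transcripts of another gene, the highest share of the members, so its level is uncertain.

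**Figure D3:**
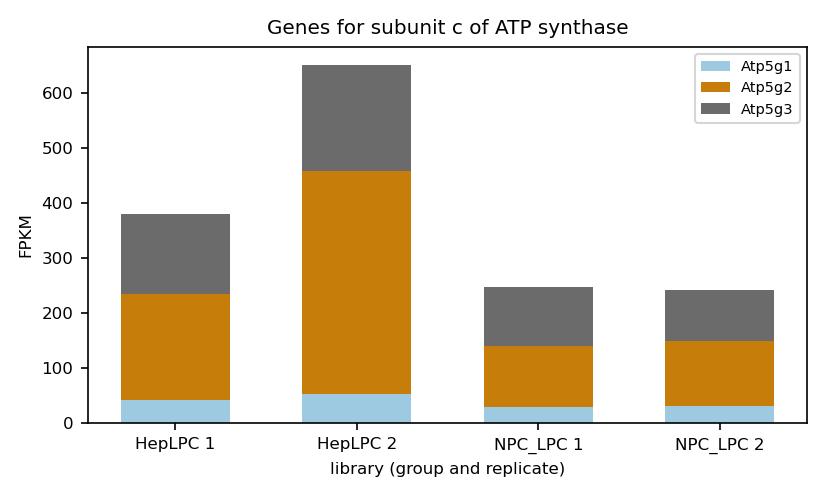
FPKM of the 3 genes for subunit c of the ATP synthase in each library, stacked from 0. The HepLPC bars are the taller, and in HepLPC replicate 2 Atp5g2 makes up 62.5% of the sum. By counts its share there is 44.8%.

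Median fold changes over all genes differed by chromosome, and members were set beside the median of the genes on their own chromosome. Only genes of at least 10 CPM on average entered these medians. On chromosome 4, 525 genes had a median log2 fold change of -0.56, and all 4 members there (Ndufb6, Ndufs5, Sdhb and Uqcrh) were below 0, with a median of -0.28. They were 4 of the 10 members below 0. On chromosome 15, 373 genes had a median of 0.68, and the 4 members there (Atp5g2, Ndufb9, Cox6c and Ndufa6) lay between 0.86 and 1.26. They included 3 of the 5 members above 1 and 3 of the 5 called by DESeq2. With the chromosome medians of each library taken out, the log2 fold changes of Atp5g2, Ndufb9, Cox6c and Ndufa6 were 0.54, 0.46, 0.39 and 0.15, and those of Ndufb6, Ndufs5, Sdhb and Uqcrh were 0.27, 0.29, 0.20 and 0.10.

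Chromosome 19 differed between libraries of the same group. Its 339 genes were higher in HepLPC replicate 2 than in replicate 1 by a median of 0.66 on the log2 CPM scale, and NPC_LPC replicate 2 minus replicate 1 was -0.48. The members there, Cox8a, Ndufb8, Ndufs8 and Ndufv1, had medians of 0.96 and -0.44 for the same differences. Ndufs8, an iron-sulfur core subunit of complex I, was at 26.7 (replicate 1) and 57.4 CPM (replicate 2) in HepLPC, against 33.6 and 24.7 CPM in NPC_LPC, and the libraries ranked alike for Ndufv1 and Cox8a. The shift of the members as a whole was as large without these chromosomes: the median of the 65 tested members off chromosomes 4, 15 and 19 was 0.42. Over all 77 members with chromosome medians taken out it was 0.40, with 70 above 0. Ndufa12, on chromosome 10, kept a log2 fold change of 1.29.

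**Figure D4:**
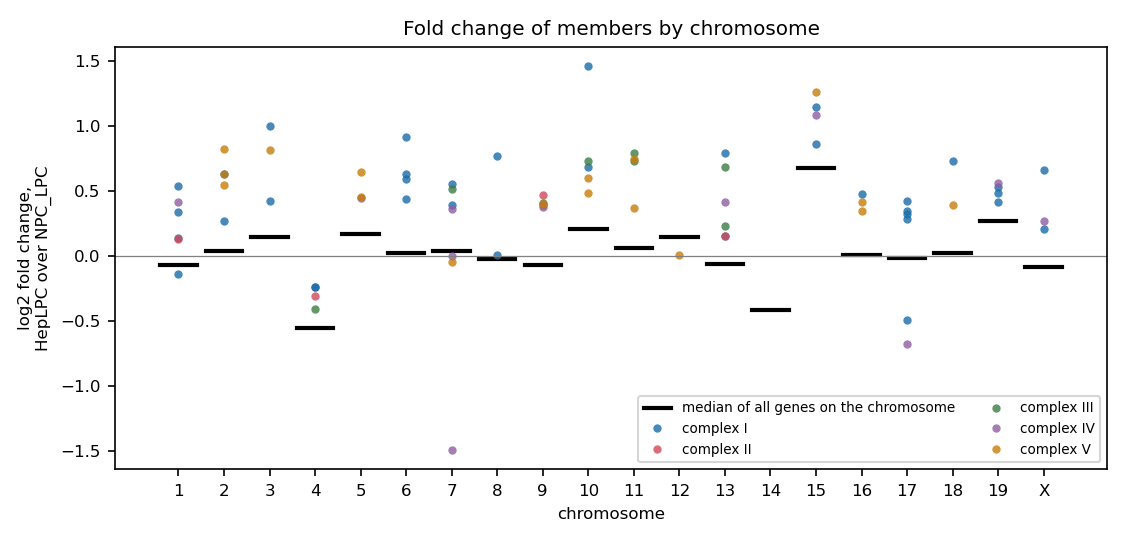
Log2 fold change, HepLPC over NPC_LPC, of tested members by chromosome (points, coloured by complex), with the median of all genes of at least 10 CPM on each chromosome (black bars). The 4 members on chromosome 4 are all below 0, and the 4 on chromosome 15 lie between 0.86 and 1.26.

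Transcript length moved with the difference as well. Members are short: the 75 tested members with an annotated length had a median of 1001 exonic bases, against 3405 bases over all genes tested. Among genes that are not members, the 406 with under 1000 exonic bases had a median log2 fold change of 0.29, and the 3077 with at least 5000 bases one of -0.26. The 37 members under 1000 bases had a median of 0.45, a larger value, and the difference was not tested. HepLPC replicate 2 was the highest and the NPC_LPC libraries the lowest in both sets: short non-member genes had median deviations from the mean of 0.02, 0.31, -0.17 and -0.13 in HepLPC replicates 1 and 2 and NPC_LPC replicates 1 and 2, and members had 0.10, 0.36, -0.20 and -0.21.

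With the length trend of each library taken out of the fit, the median log2 fold change of the members was 0.13, with 47 of 77 above 0. With length trend and chromosome medians both taken out it was 0.08, with 46 above 0 and 31 below. By complex, I to V, these last medians were 0.09, 0.13, 0.22, -0.04 and 0.15. The sign changed in 21 members. Ndufa12 was then at 0.999, Atp5g1 at 0.84, Ndufa5 at 0.54, Cox7a2l at -1.001 and Ndufv3 at -0.59. The chromosome 4 members Ndufb6, Ndufs5, Sdhb and Uqcrh were at -0.099, -0.018, -0.089 and -0.28. Members were 37 of the 443 tested genes under 1000 bases. Exonic length is the union of annotated exons, 4912 bases for Atp5g1 and 4375 for Ndufb2, where their FPKM imply 802 and 299. The length-adjusted values of Atp5g1 and Ndufb2 are thus uncertain. The trend was fitted only on genes of known length and at least 10 CPM on average, members among them. Atp5o and Atp5sl, counted among the 77, have no annotated length. No length trend was removed from them, and they stayed at 0.41 and -0.05 in the length-adjusted fit.

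**Figure D5:**
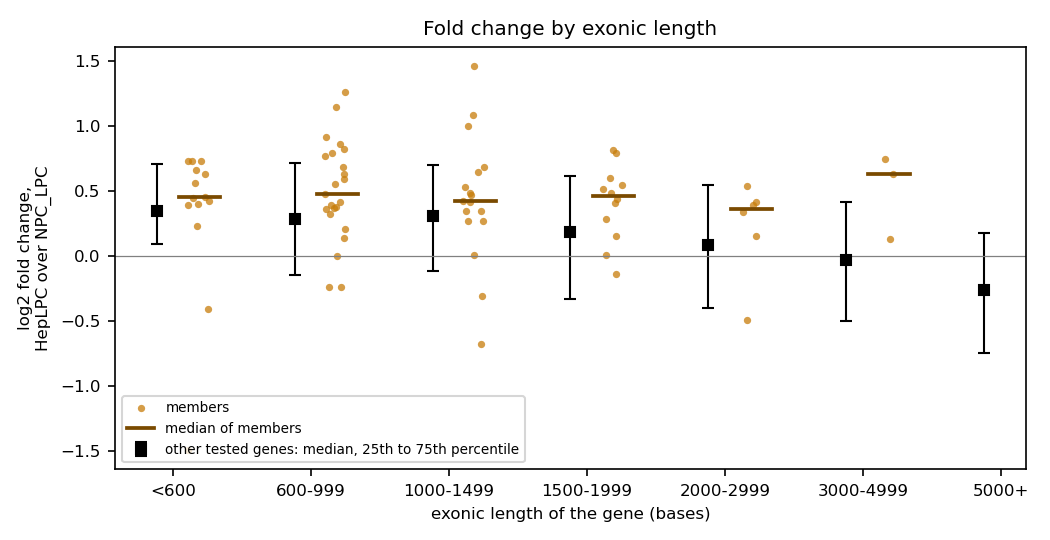
Log2 fold change, HepLPC over NPC_LPC, by exonic length of the gene; squares and bars are the median and the 25th to 75th percentile of tested genes that are not members, points are members and lines their medians. The median of the other genes goes from 0.34 below 600 bases to -0.26 at 5000 bases and above. The members' medians lie above it in each class that holds members. The class from 3000 to under 5000 bases holds 3 members, among them Atp5g1 and Ndufb2, whose FPKM imply 802 and 299 bases.

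Levels per length were compared by FPKM. Over all 4 libraries, Cox8a, Atp5b and Atp5a1 had the highest mean values, 535, 525 and 349.7 FPKM, and 24 of the tested members were at 100 FPKM or above. Under 10 FPKM were Ndufa11, Atp5sl, Cox7a1, Cox6b2 and Atp5s. Their order is loose: Cox8a and Atp5b overlapped between libraries. Median FPKM per complex was highest for complex IV, at 147, 178, 121 and 118 in HepLPC replicates 1 and 2 and NPC_LPC replicates 1 and 2. For complex I the medians were 49.3, 54.6, 32.4 and 35.1 FPKM, the lowest of the 5 complexes in each library. Levels on this scale depend on the length used. Dividing counts by FPKM implies a length of 2384 bases for Uqcr10, whose exons span 434 bases. For Ndufa11 it implies 4903 bases, with 1092. For Cox8a, Cox6c and Cox7c it implies 235, 266 and 243 bases, where their exons span 550, 1113 and 1131. By mean CPM per kilobase of exonic length, Cox8a, Cox6c, Cox7c and Atp5b ranked 4, 29, 39 and 1 among members. By mean FPKM they ranked 1, 5, 9 and 2. Complexes were not ranked by CPM per exonic kilobase.

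Related mitochondrial genes, from lists chosen with earlier results of these data known, mostly leaned the same way, and edgeR and limma-voom called 0 of them. Of subunit genes outside the symbol stems, 6 of 23 were tested, 5 lay above 0 and 1 below, with a median log2 fold change of 0.34. The 23 symbols include older synonyms and mitochondrially encoded subunits, and 7 had a row. Mitochondrially encoded subunits were not analysed here. Ndufab1, the acyl carrier protein of complex I, had a log2 fold change of 0.30 ± 0.27. Cox4i1, a nuclear-encoded subunit of complex IV, was at 249 (replicate 1) and 245 CPM (replicate 2) in HepLPC, against 195 and 185 CPM in NPC_LPC. Its log2 fold change was 0.38 ± 0.22, close to the median of the members. Usmg5, a small subunit of the ATP synthase, had one of 0.70 ± 0.36. Cyc1, cytochrome c1 of complex III, lies on chromosome 15 and was named after its values were seen. It was at 85.1 (replicate 1) and 124 CPM (replicate 2) in HepLPC, against 40.2 and 36.6 CPM in NPC_LPC, a log2 fold change of 1.45 ± 0.28, with an edgeR adjusted p of 0.0828 and a DESeq2 adjusted p of 0.00052. Atpif1, the inhibitor of the ATP synthase, went below 0 at -0.29 ± 0.29.

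Of carriers of electrons, nucleotides and phosphate, 8 of 9 were tested, 7 lay above 0 and 1 below, with a median log2 fold change of 0.69, with 4 higher at an unadjusted edgeR p under 0.05 and 2 called by DESeq2. Slc25a4, an ADP/ATP carrier, was at 426 (replicate 1) and 462 CPM (replicate 2) in HepLPC, against 273 and 267 CPM in NPC_LPC, a log2 fold change of 0.72 ± 0.23. The groups were apart, and the edgeR adjusted p was 0.168. Slc25a3, the phosphate carrier, had a log2 fold change of 0.67 ± 0.27. Of tricarboxylic acid cycle and pyruvate dehydrogenase genes, 18 of 18 were tested, 15 lay above 0 and 3 below, with a median log2 fold change of 0.31, with 3 higher at an unadjusted edgeR p under 0.05 and 2 called by DESeq2. Mdh2, malate dehydrogenase, and Cs, citrate synthase, had log2 fold changes of 0.87 ± 0.25 and 0.28 ± 0.24. Beside the counts of these lists, 10.4% of all genes were higher at an unadjusted edgeR p under 0.05. DESeq2 called 5.81% of all genes higher.

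Of assembly factors of complex I, 13 of 14 were tested, 8 lay above 0 and 5 below, with a median log2 fold change of 0.16, nearer to 0 than for the subunits, with 0 at an unadjusted edgeR p under 0.05 and 0 called by DESeq2. Ndufaf2 and Acad9 had log2 fold changes of 0.51 ± 0.41 and 0.12 ± 0.28. Of assembly factors of the other complexes, 27 of 28 were tested, 20 lay above 0 and 7 below, with a median log2 fold change of 0.42, with 3 higher at an unadjusted edgeR p under 0.05 and 1 called by DESeq2. Coa3 and Cox17, both for complex IV, were at 1.09 ± 0.28 and 0.29 ± 0.30. Of regulators of mitochondrial gene expression, 16 of 17 were tested, 14 lay above 0 and 2 below, with a median log2 fold change of 0.40, with 1 higher at an unadjusted edgeR p under 0.05 and 1 called by DESeq2. Lrpprc and Ssbp1 had log2 fold changes of 0.25 ± 0.21 and 0.45 ± 0.29. Ppargc1a, the coactivator PGC-1alpha, was at 22.99 (replicate 1) and 20.1 CPM (replicate 2) in HepLPC, against 31.4 and 1.49 CPM in NPC_LPC, so its lowest and its highest value were both in NPC_LPC. Of hypoxia-inducible genes, 15 of 16 were tested, 5 lay above 0 and 10 below, with a median log2 fold change of -0.26, with 3 higher and 3 lower at an unadjusted edgeR p under 0.05 and 2 called higher by DESeq2. Ldha and Hif1a were at 0.51 ± 0.25 and -0.96 ± 0.57. Over all genes, 10.4% were higher and 11.5% lower at an unadjusted edgeR p under 0.05. DESeq2 called 5.81% higher and 6.5% lower. The counts of the assembly factors and of the regulators were near or below these shares.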

How the data were processed

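RNA-seq counts and FPKM values of 4 libraries (2 HepLPC, 2 NPC_LPC) were used. The submitters' processing notes name Trimmomatic, HISAT2, HTSeq, Cufflinks, DESeq and the mm10 build, with no versions given. The authors deposited raw counts per gene and, beside them, FPKM values per gene, per the file headers; strand use in counting is not given in the sources used here, so reads of overlapping or antisense genes and of near-identical copies may be split.

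The members and all gene lists were chosen with earlier results of these data known. Counts of all 21878 rows were filtered by expression (12332 kept), scaled by TMM and tested with the edgeR 4.0.16 quasi-likelihood test (R 4.3.3), with Benjamini-Hochberg adjustment over all tested genes and a threshold of 0.05. DESeq2 1.42.0 and limma 3.58.1 (voom, and log2 FPKM with pseudocounts of 1 and 0.1), other scalings and filters, a replicate block and leaving out each library were alternatives. The chromosome and length adjustments, as offsets, were added after seeing the data. An exact permutation test of 2 against 2 libraries cannot go below p = 0.333, so none was used. Exonic lengths came from the GENCODE annotation of GRCm38, positions and promoters from RefSeq GRCm38.p6. Only the edgeR fit was tested on simulated data, with changes larger than those of the members and with no length trend or chromosome shift.

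Named members were, in each complex, the 2 with the highest mean FPKM and those with the highest and the lowest log2 fold change, all isoform families, and the 2 genes of highest mean FPKM in each related list. Any further gene was named with its values already known. The values of 1 member and 1 marker gene are not reported here.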

Additional observations from a re-analysis of the deposited data

How the results depend on the processing

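EdgeR called 53 of all genes. That count was 593 with no filter beyond any count, 1517 in DESeq2, 5 in limma-voom, 136 with the replicate block, and 8, 129 and 0 with limma on log2(FPKM + 1), on log2(FPKM + 0.1) and on log2(FPKM + 1) over all genes with any FPKM. Leaving out one library gave 0 to 377, with 0 without either HepLPC library, 377 without NPC_LPC replicate 1 and 107 without NPC_LPC replicate 2. Members called numbered 5 in DESeq2 and 0 in the other alternatives run. Whether same-numbered libraries share a source is not given. Their deviations correlated at -0.017, and a single correlation cannot decide it. With the replicate block 0 members were called and their median was 0.41. The members' median of 0.42 ranged from 0.33 (without HepLPC replicate 2) to 0.60 (without HepLPC replicate 1), and was 0.13 with the length trend removed and 0.079 with chromosome medians removed too. Some single members changed direction, and the cause was not tested. Cox6b2 was at 0.016 with upper-quartile factors, at 0.21, 0.22 and 0.21 in the FPKM fits, and at -1.19 to 0.87 leaving out one library. Cox7a2l was at 0.17 in each FPKM fit. Leaving out one library gave -0.15 to 0.087 for Atp5sl, -0.033 to 0.82 for Cox6a1, -0.21 to 1.07 for Cox8a and -0.72 to 0.16 for Sdhb. With chromosome medians removed Sdhb was at 0.20 and Uqcrh at 0.10, and with the length trend removed too they were at -0.089 and -0.28. With the length trend removed Cox6a1 was at -0.024, Cox6b1 at -0.074, Cox7a2 at -0.020, Cox7b at -0.091, Ndufa3 at -0.036 and Uqcrb at -0.20. With both removed Cox6a1 was at -0.18, Cox6b1 at -0.072, Cox7b at -0.0053, Cox8a at -0.20, Ndufa3 at -0.033 and Uqcrb at -0.11. The members' median SE was 0.28, against their median of 0.42. A lone library left in a group is assumed to vary like the other group.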

Other observations

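Deposited FPKM and counts gave different pictures for some members. Lengths implied by dividing counts by FPKM were mostly below the exonic lengths of members. The median ratio of implied to exonic length was 0.71 over 75 members, against 1.33 over all tested genes. It was 0.068 for Ndufb2, 0.16 for Atp5g1, 0.22 for Cox7c and 0.24 for Cox6c. The ratio was above 2 for 4 members, or 5.33%, against 17.3% of all tested genes. These were Uqcr10 (5.49), Ndufa11 (4.49), Ndufv3 (2.49) and Atp5h (2.08). Cox7a2l differed by library: its FPKM values were 45.9 and 78.1 in HepLPC and 51.96 and 54.4 in NPC_LPC, where its CPM values were 47.1, 118, 136 and 128.

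Sequence sharing was low for most members. Of the 75 tested members with transcripts in the annotation, 57 had under 10% of their 50-base stretches in transcripts of another gene, and the highest shares after Atp5g2 were 31.6% in Ndufb6, 28.5% in Ndufa13 and 25.5% in Uqcrb.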
